A study of Mus musculus with 12 samples.

Results

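The mitochondrial ribosomal protein genes described here were every gene in the deposited tables whose symbol is Mrpl or Mrps followed by a digit, which gave 77 of 32699 genes. All 77 passed the filter on low counts (CPM, reads scaled to a common library size, over 10 in at least 2 libraries), which 8273 genes passed in all, and the lowest member count in any library was 113. By symbol 48 were Mrpl and 29 were Mrps. By their place in the ribosome 50 belonged to the large subunit, including Mrps30 and Mrps18a, and 26 to the small subunit. The remaining gene, Mrps36, is now known as a component of the α-ketoglutarate dehydrogenase complex.

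Mitochondria carry their own ribosomes, which translate the few messenger RNAs encoded by mitochondrial DNA into core subunits of the respiratory chain and ATP synthase. Their RNA comes from mitochondrial DNA, but their proteins are encoded in the nucleus, made in the cytosol and imported. Some of these proteins descend from bacterial ribosomal proteins, and others were added in the mitochondrial lineage. Red cell precursors use mitochondria for iron-sulfur cluster and heme synthesis and clear them late in maturation.

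The 12 RNA-seq libraries came from G1E-ER4, a single mouse erythroid progenitor line that lacks endogenous GATA-1 and carries a GATA-1 fusion that β-estradiol (E2) activates through its estrogen receptor part, which starts erythroid maturation. Each of 4 groups had 3 libraries. The Ctrl group received neither agent, the TMG group Thiamet-G at 10 µM, the E2 group β-estradiol at 1 µM and the TMG_E2 group both, with 30 h of treatment. Thiamet-G blocks OGA, which takes the sugar O-GlcNAc off proteins, and the study asked whether disturbing O-GlcNAc cycling alters the transcription programme of maturation. All groups carried the fusion protein, were kept under puromycin with erythropoietin and stem cell factor, and were at passages 35 to 40; there was no group without the fusion protein, so a response to E2 that does not need it cannot be told apart. Nothing in the labels says that the 3 libraries of a group came from separate experiments, so a p-value here reflects library-to-library spread that may be only technical.

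Library totals ran from 17589380 to 23178721 estimated counts, and the members together took 0.442% to 0.459% of them without E2 and 0.339% to 0.359% with E2. The labels name the cells as embryonic stem cells at the blastocyst stage, but 6 of 8 stem cell markers, Pou5f1 and Sox2 among them, were at 0 in every library and the list summed to at most 0.272 CPM. All 10 erythroid markers passed the filter, with a sum of 2016 to 2125 CPM without E2 and 7503 to 8268 CPM with E2. The 6 mast cell markers summed to 79.2 to 103.5 CPM without E2 and to at most 0.878 CPM with E2, with Mcpt8 and Tpsb2 at 0 throughout. Megakaryocyte markers summed to 9.24 to 17.1 CPM, lymphoid markers to at most 1.25 CPM and myeloid markers to at most 0.0450 CPM. The erythroid list thus rose and the mast cell list fell with E2, and the part of these shifts in the results below was not tested. Pairs of libraries of a group differed with a chi-square per degree of freedom of 2.41 to 4.17 in Ctrl, TMG and E2 and of 8.66 to 13.1 in TMG_E2, so no library was a copy of another and TMG_E2 had the widest spread. In these bulk libraries, fewer cells of a kind and less RNA per cell cannot be told apart.

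The promoters of 4 members are printed because these genes stand at the ends of the response to E2. Mrpl12 and Mrpl50 fell furthest with E2, and Mrpl53 and Mrps18c had the largest rises with E2 in cells without TMG. In cells given TMG the largest rise with E2 was that of Mrpl33, whose promoter is not printed. Each line gives the 200 bases before the annotated start, 5′ to 3′ along the gene, from RefSeq on GRCm38.p6, with capitals for matches to the motifs named in the next paragraph.
Mrpl12 (chr11:120484437-120484636, plus strand): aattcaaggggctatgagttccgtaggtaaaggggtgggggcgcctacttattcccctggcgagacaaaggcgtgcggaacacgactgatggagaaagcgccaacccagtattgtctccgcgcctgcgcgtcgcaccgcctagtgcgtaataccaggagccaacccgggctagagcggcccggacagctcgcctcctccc
Mrpl50 (chr4:49521084-49521283, minus strand): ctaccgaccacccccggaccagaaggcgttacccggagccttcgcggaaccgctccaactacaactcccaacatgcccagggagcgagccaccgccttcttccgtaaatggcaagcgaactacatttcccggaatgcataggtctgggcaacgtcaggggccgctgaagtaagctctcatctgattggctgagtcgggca
Mrps18c (chr5:100798559-100798758, plus strand): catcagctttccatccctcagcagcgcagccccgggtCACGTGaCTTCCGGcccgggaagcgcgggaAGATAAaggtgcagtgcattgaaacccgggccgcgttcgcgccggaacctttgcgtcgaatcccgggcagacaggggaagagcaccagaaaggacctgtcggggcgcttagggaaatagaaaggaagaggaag
Mrpl53 (chr6:83108908-83109107, plus strand): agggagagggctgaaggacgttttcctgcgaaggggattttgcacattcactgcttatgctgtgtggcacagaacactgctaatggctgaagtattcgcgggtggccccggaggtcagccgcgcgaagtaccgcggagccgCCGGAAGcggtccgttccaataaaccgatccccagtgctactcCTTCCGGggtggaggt

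The motifs searched on both strands were GCATGCGC for NRF1, CCGGAAG for ETS factors such as GABPA, AAGATGGC for YY1, CACGTG for the E-box, AGATAA for GATA factors and TGACGTCA for CRE. None of the 6 contains another, and matches to different motifs were counted even where they overlapped. The Mrpl12 and Mrpl50 stretches held no match, Mrps18c held an E-box, an ETS and a GATA match, and Mrpl53 held 2 ETS matches. RefSeq promoter windows of 300 bases, from 250 before to 50 after the start, were found for 68 of the 77 members, with 74 windows in all. An ETS match stood in 33.8% of the members' windows, in 22.04% of those of tested genes and in 8.86% of all 32851 windows. YY1 matches stood in 16.2%, 5.73% and 2.75% of the same 3 sets, NRF1 matches in 10.8%, 6.31% and 2.71%, and GATA matches in 14.9%, 6.09% and 11.2%. E-boxes stood in 9.46%, 11.05% and 7.15%, and CRE matches in 2.7%, 3.66% and 1.79%. By gene, 25 members held an ETS match in a window, of which 7 rose and 14 fell in E2 against Ctrl. Of the 43 members with a window but no ETS match, 6 rose and 25 fell. The window of Mrps18b, which fell, held an ETS and an NRF1 match. The 4 printed stretches thus do not stand for all members, and a relation between motifs and response was not tested. These are descriptions of letters, not of binding.

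Levels per transcript length, in TPM (transcripts scaled to a common total), spanned a 23.9-fold to 25.9-fold range between the lowest and highest member within a group. Averaged over all libraries, the highest were Mrpl30 at 319.9 TPM, Mrpl52 at 308.7 TPM and Mrpl12 at 273.1 TPM. The lowest were Mrps25 at 14.02 TPM, Mrpl19 at 15.8 TPM and Mrpl1 at 19.2 TPM. In Ctrl cells, Mrpl52 at 443.1 ± 70.8 TPM (SD, n = 3) and Mrpl12 at 405.3 ± 11.9 TPM did not differ beyond their spread, and Mrpl30 followed at 368.9 ± 5.97 TPM. The Mrpl52 libraries were at 399.2, 524.7 and 405.3 TPM, with estimated mean transcript lengths of 410, 314 and 408 bases. In CPM they were at 58.3, 51.4 and 59.0, so the high TPM of Ctrl replicate 2 goes with its short length estimate, and the top place needs care. With E2 alone the order changed: Mrpl30 led at 279.9 ± 3.04 TPM, Mrpl52 was at 236.3 ± 5.15 TPM, and Mrpl12, the homologue of the bacterial stalk protein that recruits translation factors, was at 153.1 ± 8.34 TPM. The median member was at 88.7 TPM in Ctrl and 88.9 TPM in TMG, against 61.3 TPM in E2 and 61.4 TPM in TMG_E2. The lowest places need care too, because 4590 exon bases of Mrps25 overlap Nr2c2 and 1962 exon bases of Mrpl19 overlap Gcfc2 on the opposite strand.

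Summed over the 50 large-subunit genes, the level was 5539, 5710.5 and 5584 TPM in the Ctrl libraries and 4220.4, 4246 and 4255 TPM in the E2 libraries. The TMG libraries summed to 5349.5, 5450.2 and 5416 TPM and the TMG_E2 libraries to 4039, 3992 and 4083 TPM. The 26 small-subunit genes summed to 2388, 2400.0 and 2393 TPM in Ctrl and 1802, 1799 and 1834 TPM in E2, and to 2322, 2399.9 and 2304 TPM in TMG and 1785, 1748 and 1779 TPM in TMG_E2. Every library with E2 lay below every library without it for both subunits. E2 libraries had 0.756 of the Ctrl sum for the large and 0.757 for the small subunit, and TMG_E2 libraries had 0.747 and 0.756 of the TMG sums. TPM are shares of all transcripts, which a few very abundant transcripts can lower; rescaled with the TMM factors (edgeR's correction for library composition), the 4 ratios were 0.808, 0.809, 0.799 and 0.809. Mean TPM per gene in the large subunit divided by that in the small subunit lay between 1.18 and 1.24 in all 12 libraries. The sums of both subunits thus moved side by side, but sums weigh abundant genes most. Gene by gene, the median log2 fold change in E2 against Ctrl was -0.17 in the large and -0.32 in the small subunit. In TMG_E2 against TMG it was -0.18 and -0.35. This difference between subunits was not tested.

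**Figure D1:**
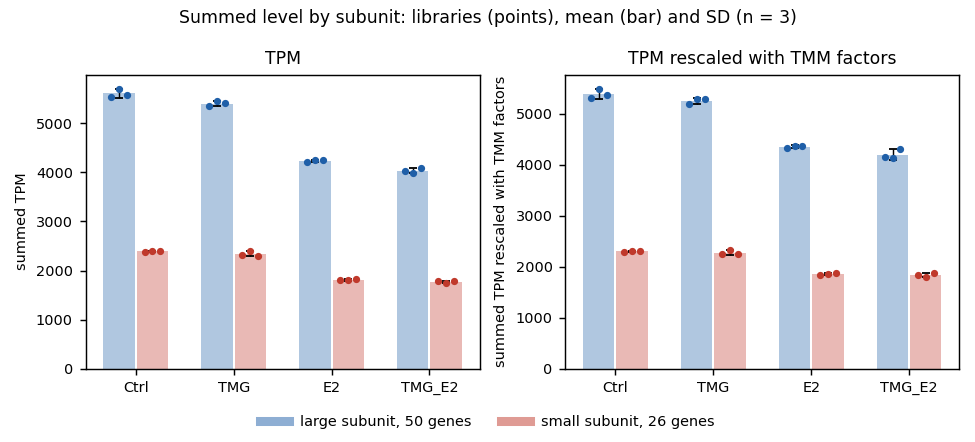
Summed level of the 50 large-subunit (blue) and 26 small-subunit (red) genes by group, as TPM (left) and as TPM rescaled with TMM factors (right); points are libraries, bars means and error bars SD (n = 3). Both subunits are lower in E2 and TMG_E2 than in Ctrl and TMG on both scales.

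E2 lowered more of these genes than it raised. Against Ctrl, 45 of the 77 fell and 14 rose (edgeR quasi-likelihood test, adjusted p under 0.05 over all 8273 genes), with a median log2 fold change of -0.22 against -0.00076 over all genes. The share called, 76.6%, stands beside a background of 82.7% of all tested genes called in this comparison. By direction 58.4% of members fell, against a background of 41.2%, and 18.2% rose, against a background of 41.5%. Most changes were moderate: 2 members, Mrpl50 and Mrpl12, changed by at least 2-fold, or 2.6% against 17.3% of all tested genes. These calls are relative to the other genes, since TMM takes the bulk of genes as unchanged.

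Mrpl50, a mitochondria-specific protein of the large subunit, fell furthest; its gene lies at chr4:49512597-49521083 (RefSeq, GRCm38.p6), and its promoter is printed above. Mrpl50 stood at 62.3, 65.1 and 64.7 CPM in the Ctrl libraries, 66.7, 69.1 and 62.7 in TMG, 26.9, 27.2 and 26.8 in E2 and 26.1, 27.1 and 27.2 in TMG_E2. The 6 libraries with E2 spanned about 1 CPM and lay far below the 6 without it, with no overlap. The log2 fold change was -1.25 ± 0.05 (SE, n = 3 per group; adjusted p = 6.68e-14, edgeR). Mrpl12 stood at 196, 196 and 205 CPM in the Ctrl libraries, 191, 196 and 217 in TMG, 85.0, 82.4 and 91.0 in E2 and 75.5, 77.6 and 87.0 in TMG_E2. Its groups with and without E2 did not overlap either, and its log2 fold change was -1.21 ± 0.06 (adjusted p = 1.57e-12, edgeR). Mrpl12 lies at chr11:120484637-120488754 and shares 200 exon bases with an antisense lincRNA.

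The next largest falls in the large subunit were Mrpl42, at log2 -0.96 ± 0.05, and Mrpl34, at -0.90 ± 0.09. Mrpl34 stood at 32.7, 29.5 and 30.5 CPM in the Ctrl libraries, 28.1, 28.5 and 31.4 in TMG, 15.9, 15.4 and 18.5 in E2 and 12.3, 13.8 and 16.3 in TMG_E2. The other 4 of the 8 largest falls were in the small subunit: Mrps35 at log2 -0.87 ± 0.06, Mrps27 at -0.86 ± 0.06, Mrps6 at -0.80 ± 0.07 and Mrps34 at -0.79 ± 0.09. Mrps27 stood at 49.0, 50.4 and 52.5 CPM in the Ctrl libraries, 54.5, 51.9 and 53.7 in TMG, 28.4, 25.8 and 29.9 in E2 and 25.1, 27.8 and 25.9 in TMG_E2. Mrps27 is a pentatricopeptide repeat protein, a class that binds RNA, and its groups with and without E2 did not overlap. Mrps34 shares 1309 exon bases with Mapk8ip3 on the opposite strand and 763 with Nme3 on its own strand, and Mrps6 shares 159 with Slc5a3 on its own strand, so their values are uncertain where counting could not split the reads.

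The rises were smaller, with 11 among the 50 large-subunit genes (22%) and 3 among the 26 small-subunit genes (11.5%). This difference was not tested. Mrps18c of the small subunit, at log2 0.65, was among the largest rises and is described below. Mrpl53 stood at 20.3, 20.9 and 21.9 CPM in the Ctrl libraries, 20.3, 24.2 and 23.5 in TMG, 31.95, 32.1 and 35.9 in E2 and 30.4, 38.1 and 36.9 in TMG_E2. Mrpl53 sits near the stalk base; its log2 fold change was 0.66 ± 0.09 (adjusted p = 1.35e-06, edgeR), and every E2 library lay above every Ctrl library. Its gene (chr6:83109108-83109932) shares 695 exon bases with the annotated gene Gm42688 on the same strand. Mrpl33 stood at 21.6, 24.1 and 21.5 CPM in the Ctrl libraries, 22.5, 23.6 and 21.3 in TMG, 35.4, 36.3 and 32.6 in E2 and 38.5, 32.3 and 34.8 in TMG_E2. Mrpl33, one of the smallest proteins of the large subunit, had a log2 fold change of 0.63 ± 0.07 (adjusted p = 2.55e-07, edgeR). Mrpl57 rose by log2 0.50 ± 0.08, Mrpl32 by 0.44 ± 0.05, Mrpl24 by 0.37 ± 0.04, Mrpl27 by 0.32 ± 0.06 and Mrpl51 by 0.29 ± 0.06. Mrpl24 lines the exit of the tunnel through which new proteins leave the ribosome; it shares 594 exon bases with Rrnad1 on the opposite strand.

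**Figure D2:**
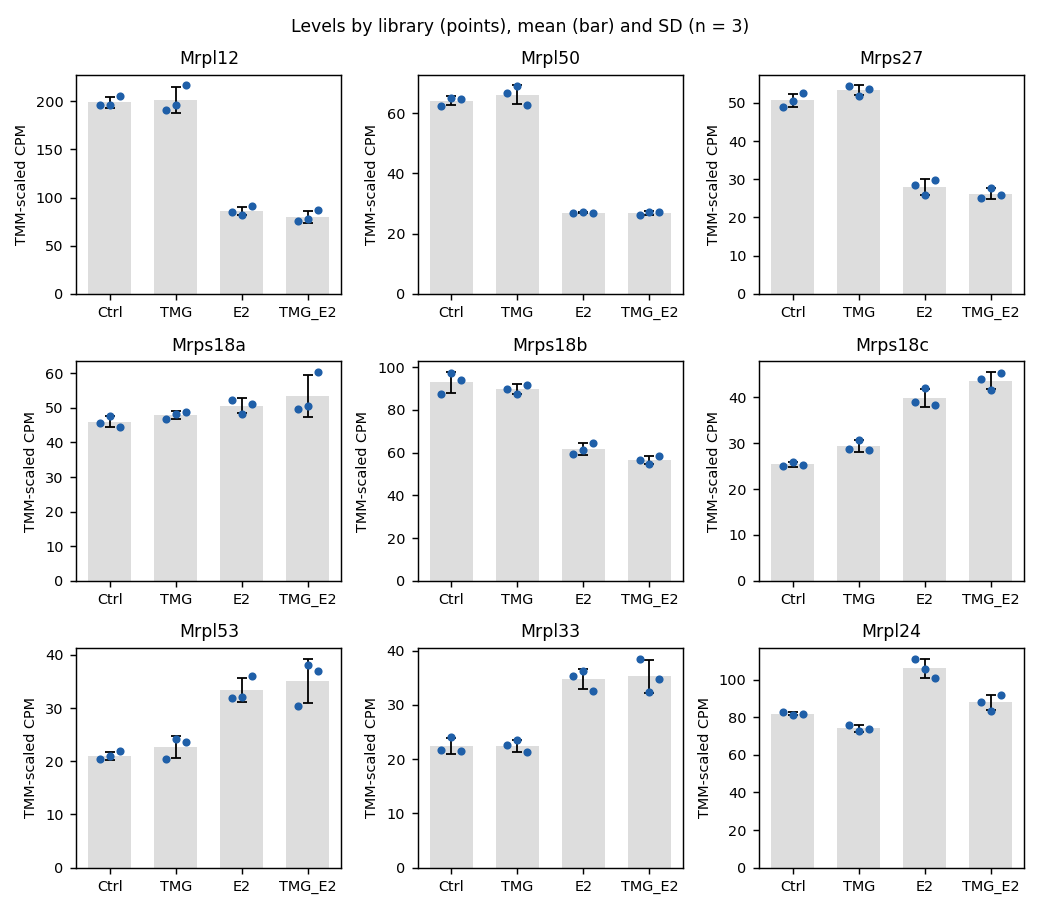
TMM-scaled CPM of 9 members by group; points are libraries, bars means and error bars SD (n = 3), with each vertical axis from 0. Mrpl12, Mrpl50, Mrps27 and Mrps18b are lower and Mrps18c, Mrpl53 and Mrpl33 higher in all 6 libraries with E2 than in all 6 without.

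By class, the 10 mitochondria-specific small-subunit genes had 9 falls and no rise, with a median of -0.47; the exception, Mrps31, was at log2 0.01 ± 0.07 (adjusted p = 0.898, edgeR). The 20 mitochondria-specific large-subunit genes had 10 falls and 5 rises with a median of -0.12. The 30 large-subunit genes with bacterial relatives had 17 falls and 6 rises with a median of -0.19, and the 16 such small-subunit genes had 8 falls and 3 rises with a median of -0.19. Mrps18b, among the 9 falls, and Mrps18a were placed in the mitochondria-specific classes, although both belong to a bacterial family with Mrps18c. The difference between classes was not tested. Among groups by position, the 8 genes of the tunnel exit and membrane side had 5 falls and 1 rise, and the 7 of the central protuberance 3 falls and 1 rise. The 5 of the stalk and factor-binding site had 2 falls and 2 rises, and hold both Mrpl12 and Mrpl53. Mrpl45, which anchors the ribosome to the inner membrane, was at log2 -0.06 ± 0.05 (adjusted p = 0.278, edgeR), and Mrps30 fell by 0.42 on the log2 scale.

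In cells that also received TMG, E2 again lowered more members than it raised. In TMG_E2 against TMG, 47 members fell and 15 rose, with a median log2 fold change of -0.22 against -0.01 over all genes. That is 80.5% called beside a background of 82.7%, 61.0% lower beside 41.8%, and 19.5% higher beside 40.9%. The largest falls were Mrpl12 at log2 -1.33 ± 0.06, Mrpl50 at -1.31 ± 0.05, Mrpl34 and Mrpl42 both at -1.06, Mrps27 at -1.03 ± 0.06, Mrps6 at -1.02 ± 0.08 and Mrps35 at -1.01 ± 0.07. These 7 members, or 9.09%, were past 2-fold. The share of all tested genes past 2-fold in this comparison is not given here, so the count has no background. The highest were Mrpl33 at 0.65 ± 0.07, Mrpl53 at 0.63 ± 0.09 and Mrps18c at 0.58 ± 0.05.

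The 2 E2 comparisons share no library. Of the members, 42 fell in both and 12 rose in both, none was called in opposite directions, and 10 passed in neither: Mrpl4, Mrpl11, Mrpl20, Mrpl23, Mrpl28, Mrpl37, Mrpl49, Mrps12, Mrps24 and Mrps31. Across the 77 members the log2 fold changes correlated with Pearson's r = 0.979 and Spearman's rho = 0.973, and 76 had the same sign. Over all 8273 genes r was 0.989, and 95.3% had the same sign, against 98.7% of the members. Each comparison called 82.7% of all tested genes, and the share of all genes called alike in both is not given here. These correlations are across genes, which are not independent replicates.

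**Figure D3:**
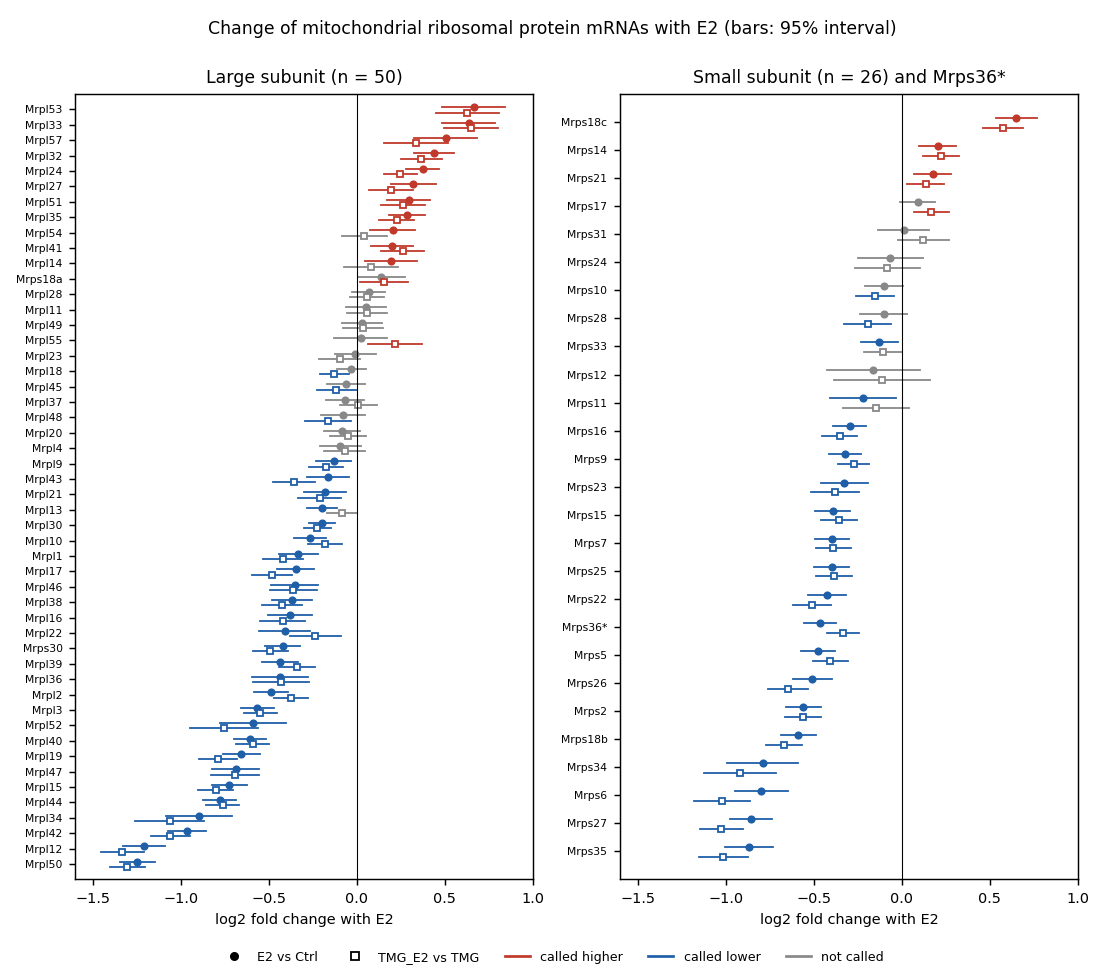
Log2 fold change of each member with E2, without TMG (circles, E2 vs Ctrl) and with TMG (squares, TMG_E2 vs TMG), for large-subunit genes (left) and small-subunit genes with Mrps36 (right, asterisk: not a ribosomal subunit); bars are 95% intervals and colour gives the call. Circles and squares of a gene mostly sit close together, from Mrpl50 and Mrpl12 at the low end to Mrpl53 and Mrpl33 at the high end.

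The 3 Mrps18 genes moved apart with E2. They encode related proteins of one bacterial family: Mrps18b and Mrps18c sit in the small subunit and Mrps18a in the large subunit. Mrps18b (chr17:35910380-35916440) fell by 0.59 on the log2 scale, with SE 0.05 (adjusted p = 2.75e-09, edgeR), and its libraries with and without E2 did not overlap. Mrps18b stood at 87.4, 97.2 and 94.0 CPM in the Ctrl libraries, 90.0, 87.5 and 91.9 in TMG, 59.3, 61.3 and 64.6 in E2 and 56.5, 54.5 and 58.3 in TMG_E2. Mrps18c (chr5:100798759-100804467) rose by log2 0.65 ± 0.05 (adjusted p = 5.73e-09, edgeR), again with no overlap. Mrps18c stood at 24.9, 25.9 and 25.3 CPM in the Ctrl libraries, 28.6, 30.8 and 28.4 in TMG, 39.0, 42.0 and 38.4 in E2 and 43.9, 41.6 and 45.4 in TMG_E2. Mrps18a (chr17:46111004-46128908) was at log2 0.14 ± 0.06 in E2 against Ctrl (adjusted p = 0.0543, edgeR, or 0.0414 with the replicate block) and rose by 0.15 ± 0.06 in TMG_E2 against TMG (adjusted p = 0.0333). Without TMG replicate 1 the latter had adjusted p = 0.0979, and without TMG_E2 replicate 3, at 60.4 CPM the highest Mrps18a library, it had 0.221; with libraries scaled by size alone the change was log2 0.06 (adjusted p = 0.397).

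Within each library the log2 ratio of TPM between Mrps18c and Mrps18b does not depend on library scaling. It lay between -0.49 and -0.10 in the 6 libraries without E2 and between 0.66 and 1.06 in the 6 with E2, so Mrps18b was the more abundant of the pair without E2 and Mrps18c with it. The mean was -0.34 ± 0.15 (SD, n = 6) without and 0.91 ± 0.16 with E2, a difference of 1.25. The corresponding difference for Mrps18c over Mrps18a was 0.47 and for Mrps18a over Mrps18b 0.78. Each of the 3 ratios gave p = 0.00216 in an exact two-sided permutation test over libraries, the smallest that 924 splits allow, and 0.00216 after Benjamini-Hochberg adjustment over the 3. Those splits ignore the replicate numbers that pair libraries with and without E2. With signs flipped within the 6 same-numbered pairs, a test added after the data were seen, each ratio gave exact p = 0.03125, the smallest that 64 flips allow, and 0.03125 after adjustment, and each was higher with E2 in 6 of 6 pairs. These tests pool cells with and without TMG; within either, 3 libraries against 3 cannot go below 0.1. Mrps18b shares 638 exon bases with the antisense gene Gm16279, and whether reads could pass between the 3 related genes was not tested.

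TMG alone changed few of these genes. Against Ctrl 1 of 77 members, Mrps18c, passed the test (1.3%, beside a background of 5.15%). By direction 1.3% were higher beside 3.01%, and none lower beside 2.14%. Unadjusted p was under 0.05 for 12 members, a count given without a background. Mrps18c rose by log2 0.21 ± 0.06 (adjusted p = 0.0460, edgeR). It went from 24.9, 25.9 and 25.3 CPM in Ctrl to 28.6, 30.8 and 28.4 CPM in TMG, with no overlap. That call was lost in 12 of 15 alternatives, with adjusted p from 0.0341 to 0.2004: it did not pass with DESeq2 (0.0775), with a correction for transcript length (0.124, log2 0.14) or without any single one of the 6 Ctrl and TMG libraries (0.0703 to 0.2004). Mrps18c is a short transcript, of about 506 bases on average in Ctrl. Log2 fold changes of all 77 members lay between -0.19 and 0.21 with a median of 0.02, and no 95% interval reached beyond 0.44 in either direction. Mrpl24 had log2 -0.14 ± 0.04 (adjusted p = 0.0738, edgeR); it passed in 4 alternatives, with library size alone (0.0430), the correction for transcript length (0.0280), only the groups compared (0.0163) and the replicate block (0.0372), and in the first and second of these Mrps18c did not pass.

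In cells maturing under E2, TMG changed 4 members, 1 higher and 3 lower. That is 5.19% beside a background of 12.8%, with 1.3% higher beside 5.61% and 3.9% lower beside 7.14%. Unadjusted p was under 0.05 for 15 members, a count given without a background. Mrpl24 fell by 0.27 on the log2 scale, with SE 0.04 (adjusted p = 0.000958, edgeR), and Mrpl17, which also sits at the tunnel exit, fell by 0.26 with SE 0.05 (adjusted p = 0.00460). Mrpl24 stood at 82.7, 81.0 and 82.0 CPM in the Ctrl libraries, 76.1, 72.5 and 73.5 in TMG, 111, 106 and 101 in E2 and 88.3, 83.6 and 91.9 in TMG_E2. Its TMG_E2 libraries all lay below its E2 libraries. Mrpl17 stood at 60.9, 59.4 and 59.7 CPM in the Ctrl libraries, 55.2, 56.6 and 52.9 in TMG, 46.2, 47.1 and 48.1 in E2 and 36.8, 38.4 and 43.1 in TMG_E2. Here too TMG_E2 and E2 did not overlap, with TMG_E2 replicate 3 nearest to the E2 libraries.

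Mrps6, the homologue of a bacterial small-subunit protein and the member with the fewest CPM, fell by 0.36 on the log2 scale, with SE 0.08 (adjusted p = 0.00851, edgeR). Mrps6 stood at 14.7, 14.3 and 15.3 CPM in the Ctrl libraries, 13.8, 13.3 and 13.4 in TMG, 8.49, 8.65 and 8.39 in E2 and 6.72, 6.47 and 6.77 in TMG_E2. Its 3 TMG_E2 libraries were the lowest of the 12. The falls of Mrpl24, Mrpl17 and Mrps6 passed in all 15 alternatives. Mrpl11, which forms the stalk base, rose by log2 0.17 ± 0.05 (adjusted p = 0.0450, edgeR). Mrpl11 stood at 40.5, 41.4 and 43.3 CPM in the Ctrl libraries, 44.4, 48.3 and 48.0 in TMG, 45.8, 41.3 and 42.6 in E2 and 47.3, 47.3 and 51.6 in TMG_E2. Its 3 TMG_E2 libraries lay above its 3 E2 libraries, but the call was lost in 6 of 15 alternatives. These were the fits without E2 replicate 2 (adjusted p = 0.156), E2 replicate 3 (0.141) or TMG_E2 replicate 3 (0.125), with library size alone (0.0622), with filterByExpr (0.0503) and with only the groups compared (0.102). Leaving out TMG_E2 replicate 1 gave 7 members, and TMG_E2 replicate 3 gave 6. Over the members, the interval furthest from 0 reached 0.53 on the log2 scale.

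Whether the TMG change depended on E2 was tested as an interaction. None of the 77 members passed (0%, beside a background of 0.931% called, 0.266% higher and 0.665% lower), and none passed with DESeq2 or in any of the 20 alternatives. A single member, Mrpl43, had an unadjusted p under 0.05, with a difference of log2 -0.19 ± 0.08 (adjusted p = 0.369, edgeR). For Mrpl24 the difference was -0.13 ± 0.06, with a 95% half-width of 0.13, and for Mrps6 -0.22 ± 0.10 with a half-width of 0.22. Over the members the 95% half-width of this difference had a median of 0.16 on the log2 scale and was at most 0.38. Across members the TMG changes without and with E2, which share no library, correlated with r = 0.545 and rho = 0.478, and 46 of 77, or 59.7%, had the same sign. Over all genes r was 0.482 and 67.9% had the same sign.

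**Figure D4:**
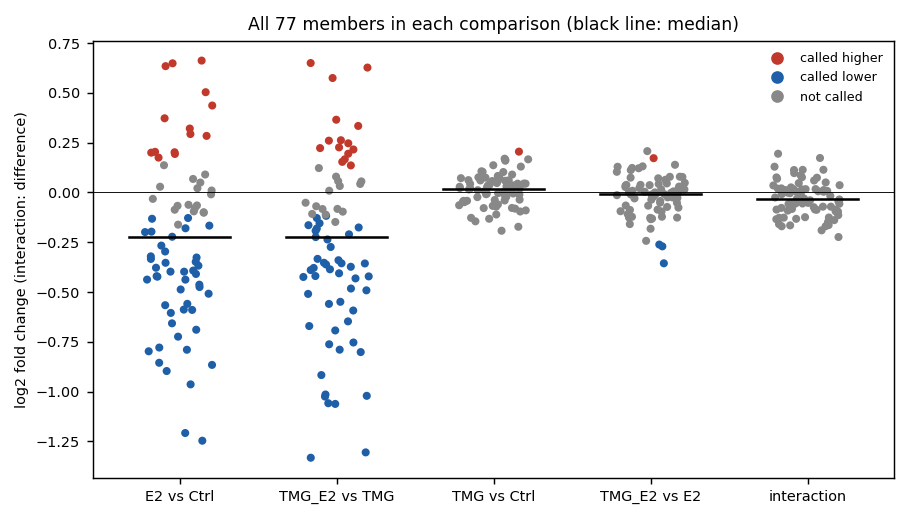
Log2 fold change of all 77 members in the 4 pairwise comparisons and the difference of the TMG changes (interaction); each point is 1 gene, spread sideways for display, coloured by its call, and the black line is the median. Points reach from about -1.3 to 0.66 in the E2 comparisons and stay between -0.36 and 0.21 in the TMG comparisons.

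A further 6 subunits of the mitochondrial ribosome have symbols outside the naming rule: Dap3, Ptcd3, Chchd1, Aurkaip1, Gadd45gip1 and Ict1. Of these 5 fell and none rose in E2 against Ctrl. Ptcd3, a pentatricopeptide repeat protein of the small subunit, fell from 158.1, 159.2 and 159.8 CPM in Ctrl to 73.4, 76.9 and 77.03 CPM in E2, a log2 fold change of -1.07 ± 0.04. Gadd45gip1 fell by 0.54 and the GTP-binding Dap3 by 0.32 on the log2 scale. Ict1, a peptidyl-tRNA hydrolase built into the large subunit, was at log2 0.12 ± 0.08 (adjusted p = 0.168, edgeR).

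The factors that work with these ribosomes also fell more often than they rose. The background over all tested genes in E2 against Ctrl was 41.2% lower and 41.5% higher. Of 16 tested translation factors 12 fell and 1 rose with E2. Tufm, the elongation factor that brings aminoacyl-tRNA to the ribosome, went from 226.7, 225.04 and 222.8 CPM in Ctrl to 100.1, 98.6 and 98.5 CPM in E2, a log2 fold change of -1.18 ± 0.04, and its exchange factor Tsfm fell by 0.98 on the log2 scale. The translational activator Taco1 rose by 0.23. All 12 tested genes of mitochondrial DNA maintenance, transcription and RNA processing fell, from Tfam, which packages mitochondrial DNA, at log2 -0.94 ± 0.04, to the polymerase Polg at -0.38 ± 0.04. Of 24 tested ribosome assembly and rRNA modification factors 12 fell and 5 rose; Rbfa, a small-subunit maturation factor, fell by 1.14 on the log2 scale. Mrm1, a ribose methyltransferase of the large-subunit rRNA, rose from 30.0, 30.6 and 29.2 CPM in Ctrl to 100.02, 97.4 and 94.9 CPM in E2, a log2 fold change of 1.70 ± 0.05. Transcripts of the mitochondrial genome itself are not analysed here.

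Among 9 tested transcription regulators of nuclear genes for mitochondria, 4 fell and 3 rose. Myc fell by 1.85, the coactivator Ppargc1b by 1.83 and its relative Pprc1 by 1.18 on the log2 scale, while Gabpb2, a partner of the ETS factor GABPA, rose by 0.43. Other ribosomal and respiratory protein sets were compared as counts in the same fit. Of 78 tested cytosolic ribosomal protein genes 25 rose and 11 fell with a median of log2 0.05, and of 77 tested oxidative phosphorylation genes 30 rose and 26 fell with a median of 0.03. With TMG alone 16 of the 78 cytosolic ribosomal protein genes and 4 of the 77 oxidative phosphorylation genes rose and none fell. The background over all tested genes was 3.01% higher and 2.14% lower. The direction of calls in that comparison depended on how libraries were scaled, as given in the closing section. Under E2, TMG lowered the assembly factors Tfb1m (log2 -0.32), Mtg1 (-0.26), Noa1 (-0.21) and Mpv17l2 (-0.19) and raised Eral1 (0.19) and Mrm1 (0.16). It also lowered Mtrf1 (-0.38), Tufm (-0.15), Elac2 (-0.20) and Pprc1 (-0.25). Noa1 and Elac2 were the genes of these lists that TMG lowered in cells without E2, by 0.21 and 0.19.

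Neighbouring genes and transcript structure were examined for the members as well. Opposite-strand neighbours that overlap at their starts were not counted, among them the members Mrpl46 and Mrps11, which share 173 exon bases. An opposite-strand protein-coding gene started within 1000 bases upstream of 18 of the 77 members, or 23.4%, against 13.4% of 7759 annotated tested genes. In 13 of these pairs the partner was tested too; in E2 against Ctrl 7 pairs had both genes called in the same direction and 0 in opposite directions, or 53.8% and 0%, against 45.7% and 24.8% of the 420 such pairs among all tested genes. In TMG_E2 against TMG 6 pairs were called in the same direction and 2 in opposite directions, or 46.2% and 15.4%, against 45.0% and 24.0%. Those 2 were Mrpl57, which rose by log2 0.33 while Ska3 fell by 0.22, and Mrps18b, which fell by 0.67 while Ppp1r10 rose by 0.14. In E2 against Ctrl, Mrps27 and Ptcd2, which start 81 bases apart, fell by 0.86 and 0.65 on the log2 scale, and Mrpl32 and the proteasome subunit gene Psma2 rose by 0.44 and 0.25. By contrast, Helq, 29 bases from Mrps18c, was at log2 0.01, and Ppp1r10, 45 bases from Mrps18b, was at 0.12, neither passing the test in that comparison. No member's mean transcript length, as RSEM weights it by isoform, shifted by 10% or more without overlap between groups, beside a background of 0.774% of genes in E2 against Ctrl and 0.81% in TMG_E2 against TMG. In E2 against Ctrl, the 33 members under 1000 bases had 10 rises and 15 falls and a median of log2 -0.10. The 44 longer ones had 4 rises and 30 falls and a median of -0.34. Over all tested genes, the 626 under 1000 bases had 245 rises and 218 falls and a median of 0.025. The 7647 longer ones had 3187 rises and 3188 falls and a median of -0.0032. Across members the change had r = -0.215 with transcript length, against 0.00238 over all genes. Exons of 30 members overlapped another annotated gene, for 20 of them a tested protein-coding gene, and the sources used here do not give how counting used strand.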

How the data were processed

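PolyA RNA from 12 samples was sequenced as stranded paired-end libraries, per the labels' protocols. The authors deposited RSEM output per library, per the file headers: expected counts, TPM, FPKM and the mean transcript length of each gene. RSEM 1.2.22 and GRCm38/mm10 are named in the series' design text, and Bowtie2 in the submitters' processing notes; the strand setting is not given in these sources. The deposited expected counts were rounded to whole numbers. Genes over 10 CPM in at least 2 libraries were kept, libraries were scaled by TMM over the kept genes, and all 12 libraries entered 1 edgeR 4.0.16 quasi-likelihood fit (R 4.3.3) with a mean per group, as the design text describes for the filter and scaling. Tests covered 5 comparisons, with Benjamini-Hochberg adjustment over all genes and a threshold of 0.05. CPM in the text are TMM-scaled, except in the filter and for the cell type markers, where libraries were scaled by their size over all genes. SE is the log2 fold change divided by the root of F. The deposited TPM served for levels between genes and for the Mrps18 ratios, and the deposited FPKM for an alternative. Count precision covers sampling and the spread between libraries; 3 counts in a library are 0.133 to 0.180 CPM. The pipeline was tested on simulated data.

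Named members were the 8 highest and 8 lowest called members per E2 comparison, up to 6 per direction in the others, the 3 highest and lowest levels, and the Mrps18 genes, Mrps30, Mrps36, Mrpl12 and Mrpl45; Mrps31, Mrpl43 and the divergent pairs were chosen after their values were seen. The members and lists were chosen with earlier results of these data known. Replicate numbers were taken as pairs where all 3 same-numbered pairs had a correlation of deviations over 0.1: E2 against Ctrl (0.108, 0.278 and 0.112), TMG_E2 against E2 (0.285, 0.182 and 0.201) and TMG_E2 against TMG (0.525, 0.149 and 0.412). Alternatives were other scalings, DESeq2 1.42.0, other filters, fits of only the groups compared, the replicate block and leaving out each library; library sizes over all genes and a transcript-length correction were added after seeing the data. Promoters and positions came from RefSeq GRCm38.p6, and exon overlaps and opposite-strand neighbours from the GENCODE vM21 annotation of the same build.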

Additional observations from a re-analysis of the deposited data

How the results depend on the processing

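No called member changed direction in any alternative of the E2 comparisons. Members called numbered 56 to 58 in E2 against Ctrl and 59 to 62 in TMG_E2 against TMG when 1 library was left out. Scaling by library size alone moved the median of all genes to log2 -0.10 in E2 against Ctrl and to -0.11 in TMG_E2 against TMG, and gave 9 rises and 53 falls of members, and 10 and 53, beside 2871 higher and 3952 lower, and 2893 and 4005, over all genes. It also turned the split of all genes called in TMG against Ctrl from mostly higher to 179 higher and 232 lower, that of TMG_E2 against E2 from 464 and 591 to 348 and 764 (566 and 531 with RLE size factors, 523 and 470 with DESeq2), and that of members in TMG_E2 against E2 from 1 and 3 to 0 and 6.

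In TMG against Ctrl, 0 members were called with DESeq2, with filterByExpr, with no filter, with library sizes over all genes and without any 1 library (0 to 0), and 4 when only the groups compared were fitted. All genes called there numbered 768 when only these groups were fitted and 196 to 257 with a library left out, against 426. In TMG_E2 against E2 the range without 1 library was 3 to 7 members and 656 (without E2 replicate 3) to 1160 genes (without TMG_E2 replicate 3), and the groups alone gave 539 genes. All genes called for the interaction numbered 48 with filterByExpr, 178 with no filter and 18 (without Ctrl replicate 3) to 161 (without TMG_E2 replicate 3) with a library left out, against 77. Apart from fewer samples or other genes tested, the cause was not tested.

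With the replicate block, 3 members and 675 genes were called in TMG against Ctrl, where the same-numbered correlations (0.0876, 0.0295 and 0.188) did not all pass 0.1, and 171 genes for the interaction. In the paired comparisons the block gave 60 members in E2 against Ctrl, 6 in TMG_E2 against E2 and 64 in TMG_E2 against TMG, and every member called without it was also called with it.

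Ratios of summed levels with E2 were 0.807 and 0.808 for the large and small subunit in FPKM, and 0.808 and 0.809 with TMM factors. In cells given TMG they were 0.794 and 0.803 in FPKM, and 0.799 and 0.809 with TMM factors. Leaving out a library gave 0.751 to 0.762 for the large and 0.752 to 0.759 for the small subunit without TMG, and 0.743 to 0.751 and 0.750 to 0.766 with it. At a threshold of 5% a length shift appeared in 1 member in E2 against Ctrl and 2 in TMG_E2 against TMG. The background over all tested genes at that threshold was 2.9% and 2.74%. Mrpl45 in TMG_E2 against TMG (log2 -0.12, adjusted p = 0.0491, edgeR) lost its call in 10 of 15 alternatives. With 3 libraries a group, the median 95% half-width for a member was 0.11 on the log2 scale, which limits what TMG comparisons can show.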
